A study of Mus musculus with 21 samples.

Results

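The Myb family of transcription factors has 3 genes in the mouse, Myb (c-Myb), Mybl1 (A-Myb) and Mybl2 (B-Myb), and their transcripts were followed in antigen-specific CD4+ T cells responding to a weak or a strong dose of peptide. The 3 members were taken by symbol from a table of 47643 genes, of which 15300 had at least 10 counts over all libraries, and all 3 passed that filter. The family was selected on earlier results of these data, the differences of its genes between the doses, so the comparisons between doses are given for the members as a description without a test. The comparisons with control and between times use the same libraries, so their p-values for the members are not independent of that choice.

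All animals were Tg4 Tiger Nr4a3-Tocky mice. Tg4 is a T cell receptor transgene that recognises a peptide of myelin basic protein (MBP), Tiger is an Il10-GFP reporter, and in Nr4a3-Tocky a fluorescent Timer protein, whose colour matures from blue to red, is driven by Nr4a3, a gene switched on by T cell receptor signalling. The [4Y] MBP peptide was injected under the skin without adjuvant, at a low dose of 0.8 µg or a high dose of 80 µg. Splenic CD4+ T cells were sorted 4 h, 12 h or 24 h later, and control mice were untreated. With 3 mice in each of 7 groups there were 21 libraries of 3′ mRNA reads, whose totals ran from 2352800 to 6244279 counts. Both sexes were used and the ages of the mice are not given in the sources used here. The gate followed the maturation of the Timer, from cells with new protein only (Blue+Red-, 4 h) through cells with both forms (Blue+Red+, 12 h) to cells with mature protein only (Blue-Red+, 24 h), and its effect and that of time cannot be told apart. The gate of the control libraries is not given in the sources used here, so in every comparison with control a difference of gate cannot be told apart from the treatment. The labelled cell type was checked against 8 T cell markers, which were counted in all 21 libraries and summed to between 1250 and 2693 CPM (counts scaled to the same total in each library).

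Myb proteins bind DNA through repeated helix-turn-helix domains and activate transcription. c-Myb is best known for keeping blood progenitors and thymocytes alive and dividing, and in mature CD4+ T cells it is linked to activation, survival and the effector state of regulatory T cells. B-Myb is made by nearly every dividing cell, is itself switched on by E2F factors at the entry into S phase, and joins the MuvB complex to turn on genes of G2 and mitosis. A-Myb is known mainly from male germ cells and germinal centre B cells.

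The promoters of Myb and Mybl2 are shown because a stretch known as the core of an E2F site, spelt GGCGGGA, lay in the last 15 bases before the start site in both. The promoter reference used here held no entry for Mybl1, so its promoter was not searched. The sequences are from RefSeq on GRCm38.p6, run 5′ to 3′ in the sense of the gene, cover 250 bases before to 50 bases after the start, and carry that motif in capitals. The motif was chosen with these sequences in view.
Myb (chr10:21160935-21161234, minus strand): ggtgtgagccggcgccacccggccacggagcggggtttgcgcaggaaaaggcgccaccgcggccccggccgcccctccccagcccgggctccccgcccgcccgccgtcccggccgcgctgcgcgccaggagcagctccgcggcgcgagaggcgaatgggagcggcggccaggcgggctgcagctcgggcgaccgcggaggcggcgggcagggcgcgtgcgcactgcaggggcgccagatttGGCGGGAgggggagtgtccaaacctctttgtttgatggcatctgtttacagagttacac
Mybl2 (chr2:163054385-163054684, plus strand): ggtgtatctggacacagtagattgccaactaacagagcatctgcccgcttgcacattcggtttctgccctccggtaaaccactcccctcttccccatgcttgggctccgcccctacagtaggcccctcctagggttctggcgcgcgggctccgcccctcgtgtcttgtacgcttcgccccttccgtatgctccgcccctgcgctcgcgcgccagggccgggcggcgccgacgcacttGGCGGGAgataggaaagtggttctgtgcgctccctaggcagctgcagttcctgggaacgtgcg

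In Myb the motif covered positions -9 to -3 and in Mybl2 positions -13 to -7 relative to the start site, in both on the sense strand. Searched on both strands, the same letters were found in 11.3% of 32851 mouse promoters of the same length. The general Myb core AACNG was found once in the Myb promoter and 3 times in that of Mybl2, but 80.3% of all promoters hold it. The letters TTTGAA, a form of the cell cycle homology region (CHR) through which MuvB complexes bind, were in neither window. The positions are relative to the RefSeq start, and the Mybl2 window, with its 50 bases after that start, ends before the first base of the Mybl2 span given next, whereas that of Myb reaches into its span. The match of letters describes these windows and does not show that a factor binds there. On GRCm38, Myb spans chromosome 10, 21124935 to 21160984 (minus strand), Mybl1 spans chromosome 1, 9667415 to 9700209 (minus strand), and Mybl2 spans chromosome 2, 163054687 to 163084688 (plus strand). Exons of Myb overlap an antisense gene, Gm26577, which had 0 counts in all libraries. Whether counting used the strand is not given in the sources used here.

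Myb rose sharply at 4 h after the lower dose and overlapped its control values after the higher dose. Normalised counts, which divide out library size, were 80.4, 56.8 and 72.8 in the control libraries. At 4 h they were 643, 656 and 758 with 0.8 µg, and 54.4, 75.5 and 53.2 with 80 µg. Every 0.8 µg library at 4 h therefore lay above every other library of the study for this gene, whereas the 80 µg libraries overlapped the controls. At 12 h the values were 107, 73.0 and 103 with 0.8 µg and 69.4, 78.5 and 78.7 with 80 µg, and both groups overlapped the controls. At 24 h Myb stood at 427, 381 and 499 with 0.8 µg and at 209, 248 and 264 with 80 µg. Both groups were above all control libraries at that time, and the doses did not overlap.

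Ordered by mean and SD (n = 3 for each group), Myb was at 686 ± 62.7 with 0.8 µg at 4 h, 436 ± 59.1 with 0.8 µg at 24 h and 240.4 ± 28 with 80 µg at 24 h. None of these groups overlapped the next in the order. The other 4 groups, from 94.4 ± 18.6 with 0.8 µg at 12 h, through 75.6 ± 5.3 with 80 µg at 12 h and 70.0 ± 12.1 in the control, down to 61.0 ± 12.6 with 80 µg at 4 h, overlapped their neighbours. At the times sampled, Myb was thus high at 4 h and 24 h after the lower dose, with a low value at 12 h. After the higher dose it was high only at 24 h. Each time came from other mice and another gate, and levels between the times were not measured.

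**Figure D1:**
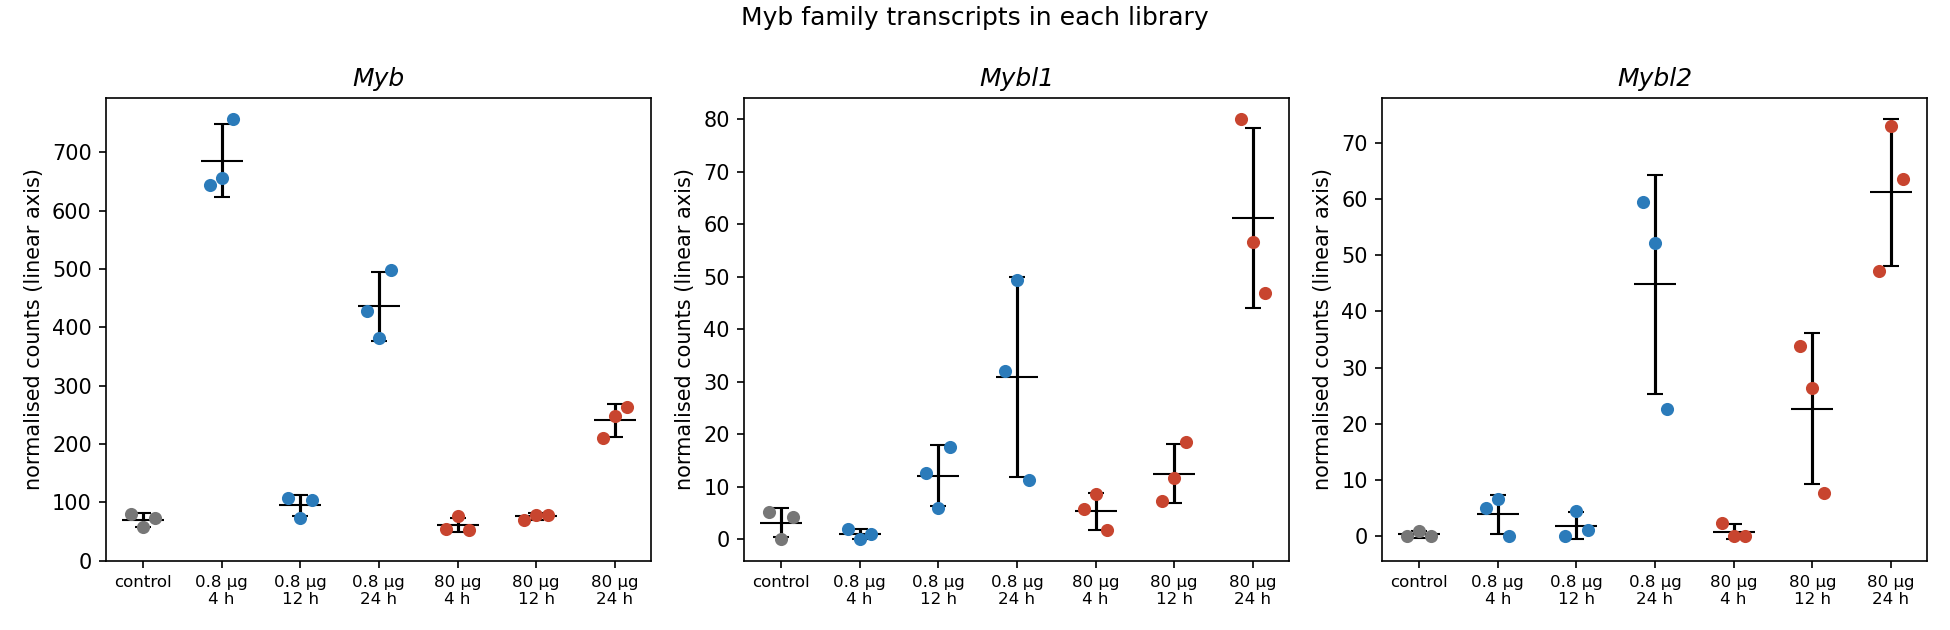
Normalised counts of Myb, Mybl1 and Mybl2 (linear axes with a separate scale for each gene) in each library, by group, with the mean (bar) and SD (whiskers, n = 3). Myb was highest with 0.8 µg at 4 h (643 to 758), while Mybl1 and Mybl2 were highest with 80 µg at 24 h (means of 61.2 for both).

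Each group was then compared with the untreated control to ask when the family moved. A gene was called when its DESeq2 adjusted p was under 0.05 and its shrunken log2 fold change was beyond 1 in either direction. With 0.8 µg, Myb rose by 3.27 on the log2 scale at 4 h (SE 0.18, adjusted p = 1.01e-69) and by 2.62 at 24 h (SE 0.18, adjusted p = 9.1e-44), and was 0.41 at 12 h (SE 0.20, adjusted p = 0.0645). With 80 µg it rose by 1.77 at 24 h (SE 0.19, adjusted p = 4.63e-20), and its log2 fold changes were -0.19 at 4 h (SE 0.21, adjusted p = 0.449) and 0.11 at 12 h (SE 0.20, adjusted p = 0.659). All of these comparisons share the same 3 control libraries. The 0.8 µg libraries at 4 h also enter the dose difference by which the family was chosen. The p-values that rest on them, here and in the step from 4 h to 12 h, are therefore not independent tests.

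Between successive times, Myb fell by 2.86 on the log2 scale from 4 h to 12 h with 0.8 µg (SE 0.17, adjusted p = 8.93e-60) and rose again by 2.20 from 12 h to 24 h (SE 0.17, adjusted p = 1.01e-35). With 80 µg the step from 4 h to 12 h was 0.30 (SE 0.20, adjusted p = 0.217), and the rise from 12 h to 24 h was 1.66 (SE 0.18, adjusted p = 9.84e-20). In a bulk library, fewer cells with the transcript and less transcript per cell cannot be told apart.

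Between the doses (80 µg against 0.8 µg), the log2 fold changes of Myb were -3.46 at 4 h (SE 0.18), -0.30 at 12 h (SE 0.19) and -0.85 at 24 h (SE 0.16). Over all genes tested at 4 h, 3.12% were called higher with 80 µg and 2.74% lower, which is given as background only.

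Markers of other cells were measured beside Myb, since it is abundant in progenitors. Of the 3 progenitor markers, Cd34 had 0 counts in all 21 libraries, Kit had at most 5 counts in any library and Flt3 at most 7. The 6 B cell markers summed to 13.2 to 31.9 CPM with 0.8 µg and 10.8 to 15.3 CPM with 80 µg at 4 h, below the 37.8 to 80.6 CPM of the control. The sum of 2 markers of regulatory T cells, Foxp3 and Ikzf2, moved with Myb at 24 h but not at 4 h. Their summed level was 46.7 to 100.3 CPM in the control, 315 to 596 CPM with 0.8 µg and 153 to 185 CPM with 80 µg at 24 h. At 4 h it was 16.6 to 21.8 CPM with 0.8 µg and 24.4 to 31.0 CPM with 80 µg, below all control libraries. At 12 h it was 110 to 136 CPM with 0.8 µg and 38.0 to 51.5 CPM with 80 µg. At 24 h most of this sum was Ikzf2, whose mean was 1454 ± 386 normalised counts for the low dose and 584 ± 52 for the high dose (SD, n = 3), whereas Foxp3 was at 106 ± 76.8 and 92.9 ± 12.1. In the control Foxp3 was at 38.9 ± 22.1. The Foxp3 values at 24 h with 0.8 µg (48.5 to 193) overlapped those with 80 µg (79.5 to 103) and those of the control (14.2 to 56.7). Other marker sums also differed between the doses where Myb did. The 8 T cell markers summed to 1634 to 1792 CPM with 0.8 µg and 1538 to 1556 CPM with 80 µg at 4 h. At 24 h their sums were 1964 to 2241 CPM with 0.8 µg and 2341 to 2539 CPM with 80 µg. At 4 h the 7 myeloid markers summed to 10.04 to 30.8 CPM with 0.8 µg and 2.08 to 8.13 CPM with 80 µg, against 11.1 to 17.7 CPM in the control. At 24 h the B cell markers were at 27.0 to 36.3 CPM with 0.8 µg and 7.53 to 15.99 CPM with 80 µg, and the 2 markers of CD8 T cells at 34.3 to 40.9 and 20.1 to 28.8 CPM. The 3 markers of NK cells were at 2.95 to 4.49 and 0 to 1.63 CPM at 24 h, from at most 17 counts in a library. The 3 progenitor markers were at 0.972 to 1.58 CPM with 0.8 µg at 24 h, from at most 6 counts in a library, and at 0 in all 80 µg libraries, and the 4 dendritic cell markers were at 0.243 to 3.25 CPM (at most 11 counts) and 0 to 0.16 CPM. None of these sums overlapped between the doses at the time given. The part of other cells in the level of Myb was not tested.

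Of the nearest expressed genes on each side of Myb, 1 rose at 4 h with both doses and the other with 0.8 µg. Each was compared between doses at 4 h, but whether these differences depart from that of Myb was not tested. Ahi1, a cilium and vesicle transport gene 44.5 kb away, rose by 2.55 on the log2 scale with 0.8 µg (SE 0.32, adjusted p = 4.48e-15) and by 2.11 with 80 µg (SE 0.32, adjusted p = 1.24e-10). Its levels were 281 ± 42.3 and 206 ± 26.2 normalised counts, against 45.6 ± 6.3 in the control (SD, n = 3). Hbs1l, which encodes a factor that rescues stalled ribosomes and lies 135 kb away on the other side, rose by 1.09 with 0.8 µg at 4 h (SE 0.19, adjusted p = 2.1e-08), and with 80 µg its log2 fold change was 0.28 (SE 0.19, adjusted p = 0.204). At 4 h Hbs1l was at 285 ± 15.7 for the low dose and 161 ± 19.0 for the high dose (normalised counts). The difference between doses at 4 h was -0.81 for Hbs1l (SE 0.18, adjusted p = 0.000165, under the fold threshold) and -0.44 for Ahi1 (SE 0.29, adjusted p = 0.418). At 24 h, where Myb was high again, the log2 fold changes against control of both neighbours were within 0.55 of 0 in both doses and neither was called.

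**Figure D2:**
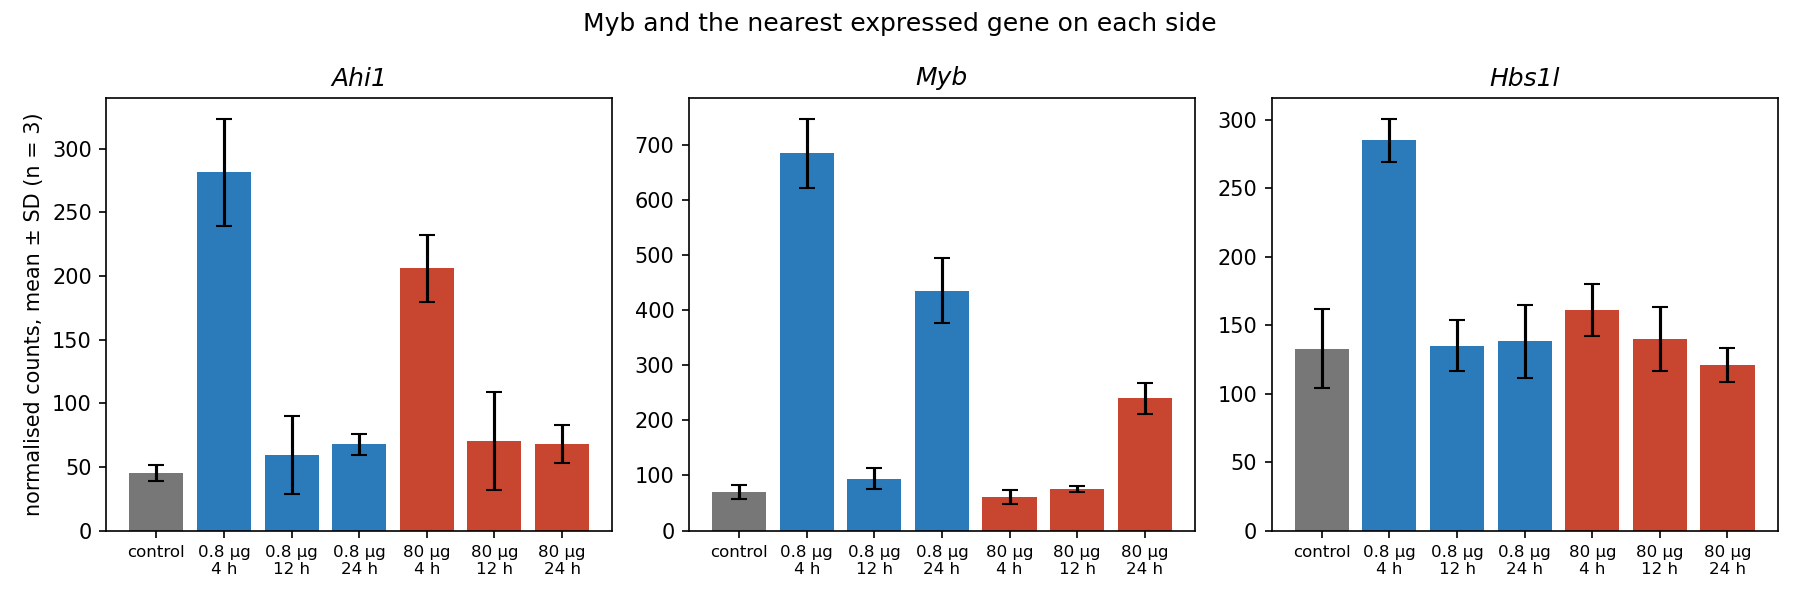
Mean normalised counts (bars from 0, whiskers SD, n = 3) of Myb and of the nearest expressed gene on each side, by group. Ahi1 was raised at 4 h with both doses (281 and 206), Hbs1l at 4 h with 0.8 µg (285), and neither followed the second rise of Myb at 24 h.

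Mybl1 was a low-count gene that became measurable late. The control libraries had 5.15, 0 and 4.28 normalised counts, the 0.8 µg libraries had 2.02, 0 and 1.08 at 4 h, and the 80 µg libraries had 5.79, 8.72 and 1.71 at 4 h. At 12 h the values were 12.7, 6.02 and 17.6 with 0.8 µg and 7.31, 11.7 and 18.5 with 80 µg. At 24 h they reached 32.1, 49.4 and 11.4 with 0.8 µg and 80.0, 56.7 and 46.8 with 80 µg. All libraries at 12 h and 24 h lay above the controls. In the order of means, from 61.2 ± 17.0 with 80 µg at 24 h and 31.0 ± 19.1 with 0.8 µg at 24 h down to 1.03 ± 1.01 with 0.8 µg at 4 h, each group overlapped the next (SD, n = 3).

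Against control, Mybl1 rose by 2.93 on the log2 scale with 0.8 µg (SE 0.63, adjusted p = 6.31e-05) and by 3.85 with 80 µg (SE 0.63, adjusted p = 7.41e-08) at 24 h. At 12 h the rises of 1.65 (SE 0.65, adjusted p = 0.0246) and 1.71 (SE 0.65, adjusted p = 0.0185) were called, but both calls were lost on leaving out control replicate 2, when the values were 1.08 and 1.15. The 0.8 µg call was also lost without replicate 1 (1.59) or replicate 3 (1.33) of its own group, and the 80 µg call without replicate 3 of its own (1.38). At 4 h the values were -0.91 with 0.8 µg (SE 0.77, adjusted p = 0.269), which rests on 3 counts in that group, and 0.62 with 80 µg (SE 0.68, adjusted p = 0.421).

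From 4 h to 12 h Mybl1 rose by 2.56 with 0.8 µg (SE 0.71, adjusted p = 0.00332) and had a value of 1.08 with 80 µg (SE 0.61, adjusted p = 0.138). From 12 h to 24 h it rose by 2.14 with 80 µg (SE 0.54, adjusted p = 0.000391), and the value with 0.8 µg, 1.28 (SE 0.56, adjusted p = 0.0512), missed the threshold. The latter rose to 1.63 and was called when replicate 3 at 24 h was left out, and to 1.61 without replicate 3 at 12 h. Between doses the log2 fold changes were 1.54 at 4 h (SE 0.74), 0.06 at 12 h (SE 0.57) and 0.92 at 24 h (SE 0.53), and the dose groups overlapped at each time.

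Mybl2 was at 1 count in all in the control libraries and was raised at 12 h after the higher dose and at 24 h after either. The control libraries had 0, 1.01 and 0 normalised counts, which is 1 read in all. At 4 h there were 5.05, 6.59 and 0 with 0.8 µg and 2.31, 0 and 0 with 80 µg. At 12 h the 0.8 µg libraries were still at 0, 4.51 and 1.17, whereas the 80 µg libraries stood at 33.8, 26.4 and 7.78 and did not overlap them. At 24 h the values were 59.4, 52.2 and 22.7 with 0.8 µg and 47.1, 72.9 and 63.5 with 80 µg, so the doses overlapped. The means at 24 h were 61.2 ± 13 for the high dose and 44.8 ± 19.4 for the low dose, the mean at 12 h for the high dose was 22.7 ± 13.4 (SD, n = 3), and all other groups were at 3.88 ± 3.45 or below.

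Because the control held 1 count of Mybl2 in all, fold changes against it are imprecise and the shrunken values depend on the prior. The ratio of pooled counts, corrected for library size, was 167 with 80 µg at 24 h (exact 95% counting interval 29.7 to 6629) and 120.4 with 0.8 µg at 24 h (21.2 to 4788). At 12 h with 80 µg it was 61.7 (10.8 to 2468). In DESeq2, Mybl2 rose by 5.39 (SE 0.75, adjusted p = 3.06e-07) and 4.96 (SE 0.76, adjusted p = 2.15e-06) at 24 h with 80 µg and 0.8 µg, and by 4.05 at 12 h with 80 µg (SE 0.76, adjusted p = 3.6e-05). The value at 12 h with 0.8 µg was 1.07 (SE 0.83, adjusted p = 0.158). At 4 h it was 0.20 with 80 µg (SE 0.87, adjusted p = 0.744) and 1.75 with 0.8 µg (SE 0.81, adjusted p = 0.0384). The last is a call on 10 counts against 1, in groups that overlap, and it was lost in edgeR (adjusted p = 0.0566), after thinning all libraries to the smallest total (1.31, adjusted p = 0.116), and on leaving out control replicate 1 (1.24), control replicate 3 (1.37), or replicate 1 (1.62) or 2 (1.43) of the 0.8 µg group.

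Between successive times, the large step of Mybl2 came between 4 h and 12 h with 80 µg, at 3.85 (SE 0.73, adjusted p = 7.03e-05), and between 12 h and 24 h with 0.8 µg, at 3.89 (SE 0.66, adjusted p = 2.69e-07). The step from 4 h to 12 h with 0.8 µg was -0.68 (SE 0.73, adjusted p = 0.487). The further step with 80 µg from 12 h to 24 h, 1.34 (SE 0.55, adjusted p = 0.0386), lost its call when replicate 2 (1.51) or 3 (1.04) at 12 h or replicate 1 (1.37), 2 (1.08) or 3 (1.18) at 24 h was left out. Between doses the log2 fold changes were -1.55 at 4 h (SE 0.79), 2.98 at 12 h (SE 0.67) and 0.43 at 24 h (SE 0.54). In a fit to only the 6 libraries compared, the value at 12 h was 0.98. As background only, 1.83% of all genes tested were called higher with 80 µg and 0.96% lower at 12 h, and 0.89% higher and 0.673% lower at 24 h.

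**Figure D3:**
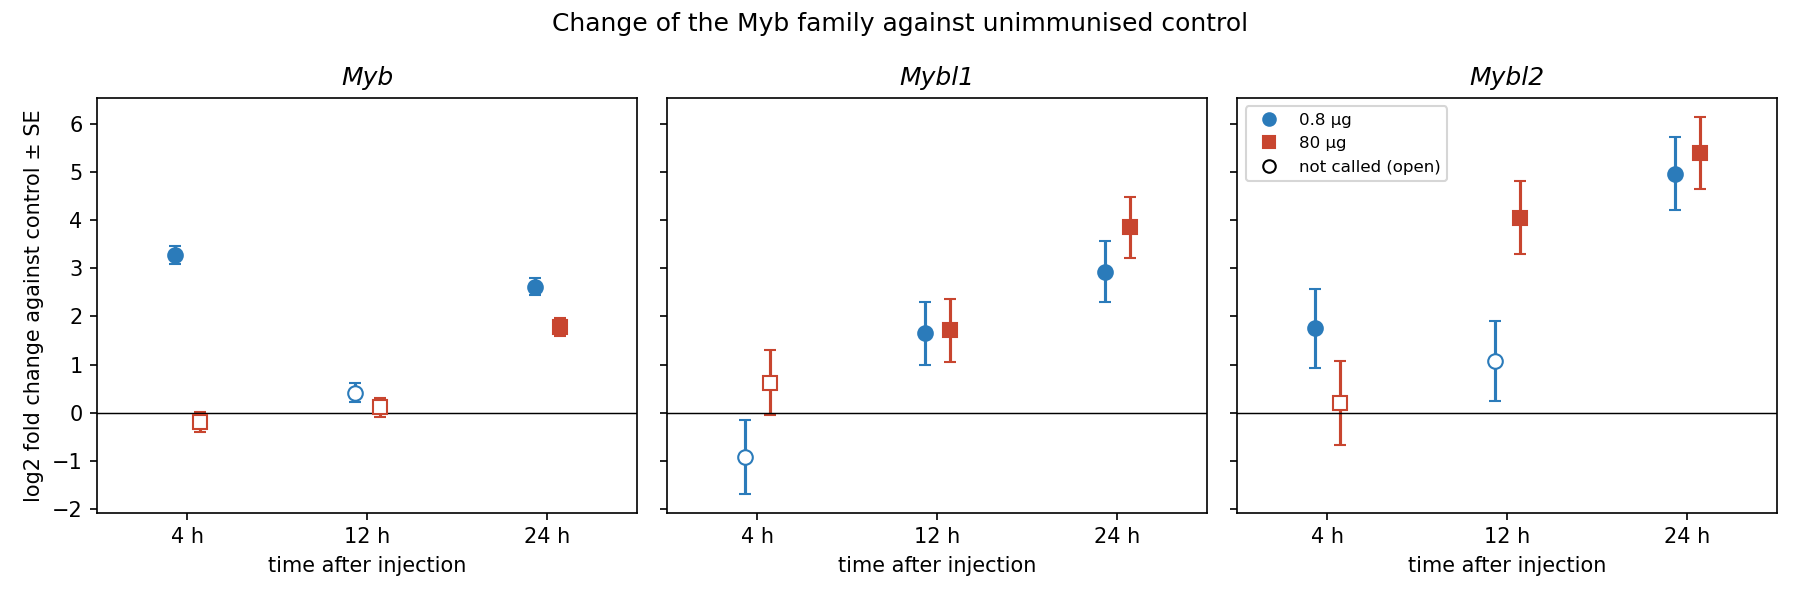
Shrunken log2 fold change against the untreated control (points, whiskers SE) of the 3 genes at 4 h, 12 h and 24 h with 0.8 µg (circles) and 80 µg (squares), with filled symbols for called values. At 24 h all 6 values were called, whereas at 4 h the only 2 filled symbols are those of Myb (3.27) and Mybl2 (1.75), both with 0.8 µg.

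Counting members against the background, with 80 µg 0 of 3 were called in either direction at 4 h in DESeq2 (0 at an unadjusted p under 0.05 and 0 in edgeR), where 18.4% of genes tested were higher and 25.1% lower, 2 of 3 were higher at 12 h (17.8% higher, 20.1% lower) and 3 of 3 at 24 h (12.3% higher, 7.91% lower). With 0.8 µg, 2 of 3 were higher at 4 h (17.3% higher, 23.4% lower), 1 of 3 at 12 h (17.2% higher, 20.5% lower) and 3 of 3 at 24 h (11.5% higher, 5.84% lower). From 4 h to 12 h, 1 member was higher and 1 lower with 0.8 µg (background 12.6% higher, 7.98% lower), and 1 was higher with 80 µg (15.7% higher, 9.1% lower). From 12 h to 24 h, 2 members were higher with 0.8 µg (17.1% higher, 9.48% lower) and 3 with 80 µg (16.7% higher, 10.5% lower). These counts include the calls named above that were lost on leaving out single libraries, those of Mybl2 at 4 h with 0.8 µg, of Mybl1 at 12 h with each dose and of Mybl2 from 12 h to 24 h with 80 µg.

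The members did not share 1 course. Over the 7 group means of log2(normalised count + 1), Pearson's r was 0.0563 between Myb and Mybl1, 0.484 between Myb and Mybl2, and 0.788 between Mybl1 and Mybl2, given as a description of 7 points that share libraries and sorting gates.

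Lists of genes that act with the family were read beside it, and the shares of all genes called, given above for each comparison, are the background to their counts. The MuvB core is made of the 5 subunits that B-Myb binds. Its median at 24 h was 0.75 with 80 µg and 0.17 with 0.8 µg (-0.0032 and 0 over all genes tested). At 24 h only Rbbp4, a histone chaperone subunit, was called, rising by 1.11 with 80 µg (SE 0.08, adjusted p = 3.14e-39) and by 1.02 with 0.8 µg (SE 0.08, adjusted p = 3.41e-32). The latter lies at the fold threshold, and its call was lost without control replicate 2 or replicate 1 of the 0.8 µg group. At 12 h 0 of 5 were called against control in DESeq2 or edgeR with either dose, where 1 was higher at an unadjusted p under 0.05 with 80 µg, and 1 was higher and 1 lower with 0.8 µg. At 4 h 1 of 5 was lower with each dose. This was Lin37, which is outside the naming rule and named after its values were seen, at -2.07 with 0.8 µg (adjusted p = 0.00146) and -2.16 with 80 µg (adjusted p = 0.000691), and both calls were lost without control replicate 2.

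Among 7 factors that share the MuvB core with B-Myb or repress through it, 2 rose and 3 fell at 4 h with each dose, and without replicate 3 of the 80 µg group 4 rose with that dose. The pocket protein p130 (Rbl2), which represses cell cycle genes in resting cells, fell by 4.52 with 0.8 µg (adjusted p = 7.58e-51) and fell by 5.13 with 80 µg (adjusted p = 2.41e-55). Tfdp2, a dimer partner of E2F factors, fell by 3.60 (adjusted p = 2.8e-18) and fell by 3.78 (adjusted p = 3.9e-20). The repressor E2f5 rose by 2.18 (adjusted p = 6.46e-13) and by 2.33 (adjusted p = 9.63e-15), and Tfdp1, the related partner, rose by 4.03 (adjusted p = 3.02e-07) and by 2.90 (adjusted p = 0.000131). At 12 h 2 of the 7 were higher and 2 lower than control with each dose. At 24 h 2 were higher and 1 lower with 0.8 µg, and 3 higher and 1 lower with 80 µg. Foxm1, which follows B-Myb onto the MuvB core in G2, had risen at 24 h by 4.50 with 0.8 µg (SE 0.49, adjusted p = 1.1e-15) and by 5.44 with 80 µg (SE 0.49, adjusted p = 1.36e-22). The 1 lower at 24 h was E2f5, at -1.51 with 0.8 µg (adjusted p = 0.000109) and -1.88 with 80 µg (adjusted p = 9.3e-07). Foxm1 was also the 1 of 7 called between doses at 12 h, like Mybl2 higher with 80 µg, by 1.82 (SE 0.48, adjusted p = 0.00578), with 16.4 ± 3.1 against 3.97 ± 1.77 normalised counts (SD, n = 3), a call that was lost without replicate 1 of the 0.8 µg group.

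Of the 18 G2 and mitosis genes bound by MYB and MuvB complexes, none had risen at 4 h and all had risen at 24 h. With 80 µg, 0 rose and 9 fell at 4 h, 11 rose and 1 fell at 12 h, and 18 rose at 24 h, with median log2 fold changes against control of -1.37, 1.97 and 5.48 (-0.154, -0.114 and -0.0032 over all genes tested). With 0.8 µg, 0 rose and 8 fell at 4 h, 7 rose and 1 fell at 12 h, and 18 rose at 24 h, with medians of -1.22, 0.35 and 5.00 (-0.131, -0.114 and 0 over all genes tested). When only the 6 libraries compared were fitted, the falls at 4 h were 5 with 80 µg and 4 with 0.8 µg. At 4 h none of the 18 was higher at an unadjusted p under 0.05 or in edgeR with either dose. The single fall at 12 h with 0.8 µg became 3 without control replicate 2 and 2 without control replicate 3 or replicate 2 of its own group. The largest rises at 24 h were those of Cenpf, a kinetochore protein, at 7.18 with 80 µg (SE 0.43, adjusted p = 4.64e-54) and 6.54 with 0.8 µg (SE 0.43, adjusted p = 6.16e-45), and of the spindle assembly factor Tpx2, at 6.43 (SE 0.35, adjusted p = 1.66e-65) and 6.09 (SE 0.35, adjusted p = 1.08e-58). Between doses, 0 of 18 were higher at 4 h, 6 at 12 h and 0 at 24 h. The 1 lower with 80 µg was Kif23, a kinesin of cytokinesis, at 4 h (-1.23, SE 0.39, adjusted p = 0.0179), a call that was lost without replicate 2 of the 0.8 µg group or replicate 3 of the 80 µg group and in the fit to 6 libraries. At 12 h Cenpf (2.38, SE 0.43, adjusted p = 3.15e-06) and Birc5, which encodes survivin (2.31, SE 0.34, adjusted p = 5.24e-09), led those higher with 80 µg. The median of the list between doses at 12 h was 1.21, and that of all genes tested 0.00985. For the count of 0 at 4 h, none was higher at an unadjusted p under 0.05 or in edgeR, and for that at 24 h, 7 were at an unadjusted p under 0.05 and none in edgeR.

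The 20 E2F-controlled genes of S phase entry, the class to which Mybl2 belongs, were mixed at 4 h and had mostly risen by 12 h. At 4 h 4 rose and 5 fell with 80 µg (median -0.51), and 2 rose and 6 fell with 0.8 µg (median -0.58), with E2f2, an E2F activator, at -4.45 (adjusted p = 9.31e-17) and -3.56 (adjusted p = 4.39e-17). At 12 h 19 of 20 had risen against control with 80 µg and 15 with 0.8 µg, where 2 fell, and at 24 h 20 of 20 had risen with each dose. The list medians at 12 h were 2.88 and 2.24 (-0.114 over all genes tested for each dose). The 2 falls became 1 without control replicate 1 or without replicate 2 or 3 of the 0.8 µg group. At 12 h with 0.8 µg Mybl2 (1.07, not called) lay within the range of this list, level with Ccne2, the gene of cyclin E2 (1.07, adjusted p = 0.0743), and below genes such as Uhrf1 (3.72, adjusted p = 4.72e-28) and Mcm5 (3.60, adjusted p = 8.4e-77), a maintenance factor of DNA methylation and a subunit of the replicative helicase. Those that fell in that group were E2f2 (-2.46, adjusted p = 2.63e-15) and Ccna2 (-1.44, adjusted p = 0.0152), the gene of cyclin A2. Between doses at 12 h, 9 of 20 were higher with 80 µg, led by E2f7 (3.10, SE 0.64, adjusted p = 0.0013), a late repressor of the E2F programme, and Ccna2 (2.95, SE 0.48, adjusted p = 7.59e-07). The values of Mcm5 (0.21, adjusted p = 0.551) and Pcna (0.13, adjusted p = 0.679), the sliding clamp of replication, were not called in the same comparison. Genes other than the leading 2 of each direction were named in this paragraph after their values were seen.

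**Figure D4:**
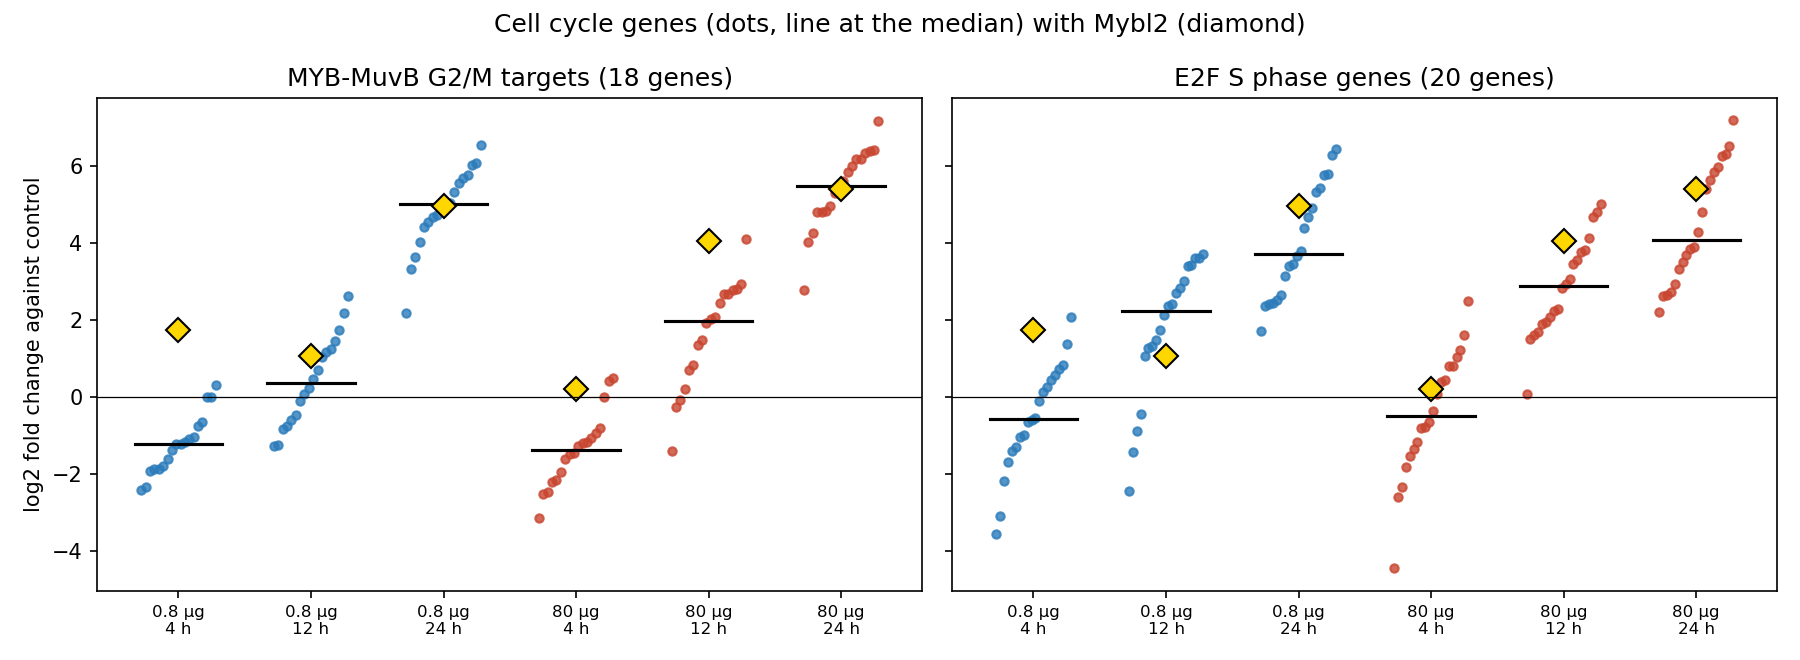
Shrunken log2 fold change against control of the 18 genes of G2 and mitosis (left) and the 20 genes of S phase entry (right) as dots, with the list median (line) and Mybl2 (diamond), by dose and time. At 12 h Mybl2 stood at 4.05 with 80 µg and at 1.07 with 0.8 µg, while the medians were 1.97 and 0.35 on the left and 2.88 and 2.24 on the right.

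Within groups, Mybl2 did not always follow these lists. In the 0.8 µg group at 24 h, replicate 3 had the fewest normalised counts of Mybl2 (22.7) and Mybl1 (11.4), the lowest sum over the G2 and mitosis list (7299, against 9605 and 9839) and the lowest sum over the S phase list (10022, against 14234 and 13964), but the most Myb (499). In the 80 µg group at 12 h, replicate 3 had the least Mybl2 (7.78), whereas its sum over the G2 and mitosis list (1353) was the highest of its group (1238 and 1296 in the others). That level of Mybl2 was 8 counts, against 37 and 36 in the others, and the order of single libraries was not tested. The TTTGAA letters were in at least 1 promoter window of 9 of the 14 genes of the G2 and mitosis list found in the promoter table (64.3%), of 3 of 17 S phase genes (17.6%) and of 20.2% of all 27025 genes. In other lists they were in 2 of 4 genes of the MuvB core (50%), 1 of 4 factors that share it (25%) and 1 of 12 c-Myb cofactors and modifiers (8.33%). They were also in 2 of 9 reported c-Myb targets (22.2%) and 2 of 7 other genes with Myb-like repeats (28.6%). GGCGGGA was in 4 of 14 G2 and mitosis genes (28.6%), 4 of 17 S phase genes (23.5%) and 12.7% of all genes, and in other lists in 3 of 4 genes of the MuvB core (75%), 6 of 12 c-Myb cofactors and modifiers (50%), 4 of 9 reported c-Myb targets (44.4%), 1 of 4 factors that share the MuvB core (25%) and 1 of 7 other genes with Myb-like repeats (14.3%). Both are given as a description with no test.

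Of 14 proteins known to bind or modify c-Myb, 2 rose and 3 fell with 0.8 µg at 4 h, and 4 rose and 4 fell with 80 µg, against 17.3% higher and 23.4% lower over all genes tested with 0.8 µg and 18.4% and 25.1% with 80 µg. The list medians were -0.44 and -0.19 (-0.131 and -0.154 over all genes tested). The former count of rises was 4 in edgeR and 4 without replicate 2 of the 0.8 µg group. At 12 h 2 rose and 6 fell with each dose, and at 24 h 1 rose and 1 fell. With 0.8 µg the rises were 1 at 12 h without control replicate 2 or replicate 2 of the group, and 0 at 24 h without control replicate 2 or replicate 1 of the group, and with 80 µg the falls at 24 h were 0 without control replicate 3. Mybbp1a, a nucleolar protein that binds c-Myb, rose by 3.30 with 0.8 µg (SE 0.14, adjusted p = 2.32e-129) and by 3.37 with 80 µg (adjusted p = 6.69e-135), and the kinase gene Pim1 by 1.93 (SE 0.15, adjusted p = 7.62e-35) and by 2.91 (adjusted p = 2.44e-78). Ets1, a factor that binds beside Myb at T cell promoters, fell by 3.10 (SE 0.10, adjusted p = 2.21e-204) and fell by 4.01 (adjusted p = 3.33e-293), and Nlk, a kinase that marks c-Myb for degradation, fell by 1.77 (SE 0.15, adjusted p = 7.74e-32) and fell by 2.26 (adjusted p = 2.52e-48). Between doses at 4 h, where Myb differed most, 1 of 14 was called, Cebpb, which cooperates with c-Myb in myeloid cells and was 1.94 higher with 80 µg (SE 0.46, adjusted p = 0.000623). The general coactivators Crebbp and Ep300 had values of -0.13 (adjusted p = 0.596) and 0.04 (adjusted p = 0.923) in that comparison, and are named outside the rule. Without replicate 1 or 2 of the 0.8 µg group, 2 of the 14 were called higher. At 12 h Pim1 was higher with 80 µg (1.504, SE 0.16, adjusted p = 1.07e-18), and at 24 h Pim1 (1.10) and Cebpb (1.56) were, of which 0 were left without replicate 1 of the 0.8 µg group and 1 without its replicate 2 or 3 or replicate 1 of the 80 µg group.

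Of 11 genes reported as c-Myb targets in blood cells, 6 were called between doses at 4 h, 4 lower and 2 higher with 80 µg, and their median was -0.16 (-0.0229 over all genes tested). Lower with 80 µg were Cd4 (-1.93, SE 0.14, adjusted p = 8.02e-39), the lineage coreceptor, and Gata3 (-1.59, SE 0.15, adjusted p = 1.36e-22), a T helper cell factor, and also Lck and Tcf7, named here outside the rule. Higher were Zeb2 (1.64, SE 0.27, adjusted p = 4.64e-08), which is reported as repressed by c-Myb, and the survival gene Bcl2 (1.06, SE 0.20, adjusted p = 6.09e-06), of which 1 was left without replicate 1 of the 80 µg group or replicate 1 or 3 of the 0.8 µg group. At 12 h, when the doses overlapped for Myb, 1 of 11 was called between doses, Gata3, which was lower with 80 µg (-2.33, SE 0.17, adjusted p = 1.02e-40), and at 24 h 0 were called in DESeq2 or edgeR (1 higher and 2 lower at an unadjusted p under 0.05). Against control at 4 h, Bcl2 fell by 3.48 with 0.8 µg (adjusted p = 1.65e-66) and fell by 2.42 with 80 µg (adjusted p = 6.39e-36). In the same order of doses, Myc rose by 4.06 (adjusted p = 2.86e-68) and by 4.43 (adjusted p = 1.44e-81). Bcl2l1, a further survival gene, rose by 4.65 (adjusted p = 8.22e-98) and by 4.30 (adjusted p = 1.25e-83). In all, 4 of the 11 rose and 3 fell with 0.8 µg at 4 h, and 4 rose and 5 fell with 80 µg, where 17.3% and 18.4% of all genes tested were higher and 23.4% and 25.1% lower. The list medians were 0.20 and 0.52 (-0.131 and -0.154 over all genes tested). At 12 h 4 rose with each dose and 3 and 4 fell. At 24 h, when Myb was raised in both doses, 0 of 11 were higher in DESeq2 (at an unadjusted p under 0.05, 1 with 0.8 µg and 2 with 80 µg, and 1 and 0 in edgeR) and 1 was lower than control with each dose, Bcl2, at -1.55 with 0.8 µg (SE 0.19, adjusted p = 2.62e-15) and -1.49 with 80 µg (SE 0.19, adjusted p = 1.96e-14). Myc was at 34.7 ± 6.5 and 35.1 ± 9.6 normalised counts at 24 h (SD, n = 3). Whether the level of Myb bears on any of these genes in these cells was not tested.

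Among 8 other genes with Myb-like repeats, 1 rose with each dose at 4 h, Snapc4, a subunit of the complex that starts small nuclear RNA genes (2.02 with 0.8 µg, adjusted p = 1.75e-20, and 1.69 with 80 µg, adjusted p = 1.04e-14). With 80 µg 1 fell at 4 h, Ttf1, a termination factor of ribosomal RNA genes (-1.12, SE 0.18, adjusted p = 6.91e-10), and 2 fell without control replicate 1 or replicate 1 of the 80 µg group. At 12 h 0 rose in DESeq2 or edgeR (2 with each dose at an unadjusted p under 0.05) and 2 fell with each dose, of which 1 was left with 0.8 µg without replicate 2 of that group. At 24 h 0 were higher in DESeq2 or edgeR (1 with each dose at an unadjusted p under 0.05), and Dmtf1, a cyclin D-binding Myb-like factor, was the 1 called lower with 80 µg (-1.04, SE 0.11, adjusted p = 1.84e-18), at the fold threshold, with 0 lower without control replicate 2, and 2 without control replicate 3 or replicate 1 of the 80 µg group. Between doses, 0 of 8 were called at any time in DESeq2 or edgeR and 0 had an unadjusted p under 0.05, with list medians of -0.10, -0.05 and 0.03 at 4 h, 12 h and 24 h.

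Genes whose course was most like each member's were ranked by Pearson's r over the 7 group means, as a description of points that share libraries. For Myb, among 8761 genes, they included Klf10 (r = 0.958), Acadvl (0.950), Fam129a (0.931) and Hmgcs1 (0.917). Klf10, a transcription factor gene, was at 62.0 ± 4.2 for the low dose and 18.2 ± 3.7 for the high dose at 4 h, and at 49.5 ± 2.4 and 47.5 ± 16.1 at 24 h (normalised counts, SD, n = 3). Hmgcs1 encodes an enzyme of cholesterol synthesis, and Acadvl one of fatty acid oxidation. The course least like that of Myb was that of Satb1 (r = -0.940), a chromatin organiser of T cells, which at 4 h was at 2632 ± 643 normalised counts for the low dose and 9311 ± 859 for the high dose, against 6014 ± 106 in the control. Cept1 (-0.938) and Usb1 (-0.920) came next.

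The courses most like that of Mybl1 were those of Ska3 (r = 0.99), which links kinetochores to spindle fibres, Qars (0.978), Parpbp (0.974), Babam1 (0.972) and 1810037I17Rik (0.972), and those least like it were Cdc37l1 (-0.978), Rsbn1 (-0.978) and Tango6 (-0.977). For Mybl2 they were Nt5c3b (0.971), Nfkbil1 (0.963), Esco2 (0.955), Pgp (0.950) and Gm10076 (0.949), with Hagh (-0.958), Zfp146 (-0.956) and Gm26624 (-0.954) at the other end. Esco2, which joins sister chromatids in S phase, had means of 1.36 in the control, 1.11 with 0.8 µg and 18.2 with 80 µg at 12 h, and 128 and 252 at 24 h. With the deposited log2 values in place of these, 4 of the 5 names stayed for Myb, 2 for Mybl1 and 1 for Mybl2, so the names for the latter pair are loose.

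The neighbours of the other members had courses of their own. Beside Mybl1, Rrs1, a ribosome assembly gene 120 kb away, rose at 4 h by 3.31 with 0.8 µg (SE 0.16, adjusted p = 2.89e-92) and by 3.46 with 80 µg (SE 0.16, adjusted p = 7.73e-102) and fell from 12 h to 24 h, when Mybl1 was highest, while Vcpip1, 18.4 kb away, was called in none of the 13 comparisons in DESeq2. Beside Mybl2, Ift52, a gene of ciliary transport 8.55 kb away, was 0.87 with 80 µg (SE 0.23, adjusted p = 0.000833) and 0.90 with 0.8 µg (SE 0.23, adjusted p = 0.000601) at 24 h, under the fold threshold. Tox2, 118 kb away, a factor of follicular helper T cells, rose at 4 h by 3.37 with 0.8 µg (SE 0.49, adjusted p = 6.44e-11) and by 4.84 with 80 µg (SE 0.48, adjusted p = 1.8e-21), when Mybl2 was at 10 and 2 counts in all. Tox2 was also higher than control at 24 h, when Mybl2 was, by 1.79 with 0.8 µg (SE 0.50, adjusted p = 0.0016) and by 1.76 with 80 µg (SE 0.50, adjusted p = 0.00162), and rose from 12 h to 24 h by 1.76 with 0.8 µg (SE 0.49, adjusted p = 0.00102), where the step with 80 µg was 0.84 (SE 0.45, adjusted p = 0.117). Between doses at 4 h Tox2 was 1.47 higher with 80 µg (SE 0.40, adjusted p = 0.00403).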

How the data were processed

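RNA of sorted splenic CD4+ T cells was read by 3′ mRNA sequencing in 21 libraries, 3 mice in each of 7 groups taken from the labels. The deposited raw counts were made by the authors: reads were trimmed, aligned to GRCm38 with STAR 2.5.2a (per the submitters' processing notes) and counted per gene with HTSeq. The annotation release is not given in the sources used here. The deposited log2 values are regularised log (rlog) values that the authors made with DESeq2, and they were used here only to find the members and as an alternative for likeness between genes.

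From the counts, 1 DESeq2 1.42.0 model (R 4.3.3) of the 7 groups was fitted over the 21 libraries together, for genes with at least 10 counts in all, with the normal shrinkage of the study's methods, and p-values were adjusted over all genes by the Benjamini-Hochberg method. Normalised counts are divided by the DESeq2 size factor, which compares libraries but not genes. Alternatives were edgeR 4.0.16, other filters, no shrinkage, a fit to the 6 samples compared, thinning, a replicate block and leaving out each library. The smallest library had 2352800 counts, in which 3 counts correspond to 1.28 CPM. This floor and the intervals cover counting error only. On simulated counts the test was checked first. Symbols were found for 47224 of the gene identifiers.

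The members and lists were chosen with earlier results of these data known. Named are the 3 members, up to 2 called genes in each direction per list and comparison whose mean reached 20 normalised counts, the 5 most and 3 least alike genes per member, and the nearest expressed gene on each side of it. One gene that this rule names is not reported here. A planned test of dose by time was not used, since it rests on the dose differences that chose the members. Replicate numbers were not used to pair the samples.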

Additional observations from a re-analysis of the deposited data

How the results depend on the processing

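Of 505 values that the 3 genes took under the alternatives, 474 kept their direction and met a rule for staying the same. Against control and between times, the rule was to keep the side of the thresholds. Between doses, where the members were not tested, the shift had to be smaller than the combined SD of the groups compared (log2 scale). Among the values kept was every alternative run for the rises of Myb at 4 h and 24 h and of Mybl1 and Mybl2 at 24 h. Every alternative for the rise of Mybl2 at 12 h with 80 µg was kept too. The call of Mybl2 at 4 h with 0.8 µg was lost in edgeR (log2 fold change 2.99, adjusted p = 0.0566), after thinning to 2352800 counts (1.31) and with only the 6 samples compared (2.11, adjusted p = 0.154), and ran from 1.24 to 2.29 on leaving out 1 library. The call of Mybl1 at 12 h with 0.8 µg was lost with only the 6 samples (1.73, adjusted p = 0.0677). It ran from 1.08 to 1.95 on leaving out 1 library, and from 1.15 to 2.00 with 80 µg. The step of Mybl1 from 12 h to 24 h with 0.8 µg became a call in edgeR (1.39, adjusted p = 0.0298) and among genes with at least 10 counts in at least 3 samples (1.31, adjusted p = 0.0279), and ran from 0.77 to 1.63 on leaving out 1 library. That of Mybl2 with 80 µg ran from 1.04 to 1.75. The dose difference of Mybl2 at 12 h was 0.98 in a fit to only the 6 samples. Values took the other sign 8 times, in 3 results whose reported log2 values were 0.11, 0.20 and 0.06. Myb at 12 h with 80 µg was -0.0121 after thinning and ran from -0.0356 to 0.222 on leaving out 1 library, Mybl2 at 4 h with 80 µg ran from -0.31 to 0.75, and the dose difference of Mybl1 at 12 h was -0.14 after thinning and ran from -0.28 to 0.39. The causes were not tested. In the 6-sample fit Mybl2 had too few counts for a value at 4 h with 80 µg and at 12 h with 0.8 µg. Over all genes that fit called 145 genes between doses at 12 h in place of 311 and 83 at 24 h in place of 151. The groups share replicate numbers. Over 63 same-number pairs, deviations from the group means had a median correlation of -0.0138 (range -0.204 to 0.211, 12 above 0.1). Over pairs with other numbers the median was -0.00357. The numbers were not used to pair the samples, and a batch shared by some of them was not tested. With the replicate block, Myb at 4 h with 0.8 µg was 3.27 above control and all 39 values of the members met the rule for staying the same. Mybl2 rested on 1 count in all in the control, and Mybl1 on 3 counts at 4 h with 0.8 µg.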
